A study of Mus musculus with 10 samples.

Results

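The nuclear genes for the subunits of the mitochondrial respiratory chain and the ATP synthase were taken from the RNA-Seq table by name: symbols starting with Nduf and a, b, c, s or v with a number, the symbols Sdha, Sdhb, Sdhc and Sdhd, and symbols starting with Uqcr, with Cox4 to Cox8 and a letter, or with Atp5. Cox7a1, Cox8b and 8 names with -ps, the label of pseudogenes, were left out. Subunits with other names are not members, such as Cyc1, the cytochrome c1 of complex III. The rule found 87 of 55426 gene entries, under 86 symbols, since Atp5o was listed under 2 identifiers. By name, 40 belonged to complex I, 4 to complex II, 8 to complex III, 17 to complex IV and 18 to complex V, the ATP synthase. Of the 87 entries, 83 are annotated as protein coding and 4 as processed pseudogenes, and 80 reached the mean TPM of 0.5 over 6 aortas that was required for testing. TPM, the unit of the table, is scaled to transcript length and to the total of the library, so levels of different genes can be compared.

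RNA-Seq was done on whole thoracic aortas of 3 control mice (Prdm16f/f) and 3 Prdm16SMKO mice (Prdm16f/f, SMMHC-CreERT2). All 6 mice carried the floxed Prdm16 allele, and Prdm16SMKO mice also carried a transgene, placed on the Y chromosome of male mice, in which the promoter of the smooth muscle myosin gene Myh11 drives a Cre recombinase that tamoxifen switches on. Deletion was induced on a C57BL/6J background at 8 weeks of age with tamoxifen at 75 mg/kg/day for 5 days and a washout of 2 weeks. The age at harvest, and whether the 3 control mice of the RNA-Seq received tamoxifen, were not given in the sources used here. PRDM16 is a transcription factor known for its part in brown fat cells, and the design asks how its loss from smooth muscle changes the aorta. Binding was measured in other cells: primary wild-type mouse vascular fibroblasts received a lentiviral vector, empty or coding for PRDM16 with a Flag tag, over 48 hours. After 1 week in puromycin (2 ug/mL) the chromatin was precipitated through the tag, giving 1 Flag library for each vector. The peak values therefore have no replicates and come from forced expression of a tagged protein in fibroblasts, not from smooth muscle.

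Prdm16 itself measured 56.1, 47.6 and 40.3 TPM in the control aortas and 23.3, 33.3 and 23.4 TPM in the Prdm16SMKO aortas. The groups did not overlap, and the difference of -0.85 ± 0.18 (log2, SE) had an adjusted p of 0.0725 with limma. Smooth muscle markers identified the tissue, with Acta2 between 6455 and 12433 TPM. The 6 smooth muscle markers summed to 20649 to 24074 TPM in control and 13730 to 17733 TPM in Prdm16SMKO aortas. Of the 6, 4 were lower in every Prdm16SMKO aorta than in every control aorta, as were 14.9% of all genes tested. In whole aortas, fewer cells of a type and less RNA per cell cannot be told apart. Transcripts of the mitochondrial genome took 14.7% to 26.5% of a library's TPM, and 13331 to 14007 genes reached 1 TPM in an aorta. With 3 mice a group, p-values rest on the spread between these animals. In limma, the spread of each gene is also drawn towards that of genes of similar level.

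The respiratory chain passes electrons from NADH through complex I, and from succinate through complex II, to ubiquinone, then through complex III and cytochrome c to complex IV, where oxygen is reduced to water. Complexes I, III and IV pump protons across the inner mitochondrial membrane, and complex V uses their return to make ATP. Complex II is made only from nuclear genes. The other complexes combine the nuclear subunits described here with a few made from mitochondrial DNA. The nuclear genes are known to be driven together by NRF1, by ETS factors such as GABPA, by YY1 and by the estrogen-related receptors (ERR). Arteries hold fewer mitochondria than heart or brown fat, and brown fat, which surrounds the thoracic aorta, is rich in them.

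Some of the promoters held words that such factors bind, and others held none. RefSeq promoter windows of 300 bases (250 before and 50 after a transcription start site, GRCm38.p6) were found for 65 member symbols and searched on both strands for the letters CGCATGCG (NRF1, its own reverse complement), CCGGAAG (ETS), AAGATGGC (YY1), AAGGTCA (ERR) and AGATAA (the core bound by GATA factors). None of these words contains another. The NRF1 word stood in 8 of the 65 windows (12.3%), beside 1.91% of the windows of all 27025 genes. The ETS word stood in 16 (24.6%, beside 9.12%), the YY1 word in 8 (12.3%, beside 2.88%) and the ERR word in 8 (12.3%, beside 4.66%). The GATA core stood in 5 (7.69%, beside 11.4%). The letters G and C made up a median of 57.3% of the member windows and 52.7% of all windows. The windows of all genes were not limited to genes tested in the aorta. Of the 65 windows, 29 held none of the 5 words, those of Ndufv3, Atp5b and Ndufa6 among them. A match is a run of letters and not a measured site.

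The following 3 promoters are shown because Atp5k and Atp5l held the most kinds of word among the 65, and because Atp5e had the most negative difference between Prdm16SMKO and control aortas of all members. Capitals mark the matches, on either strand. In Atp5k (chr5:108434350-108434649, minus strand) they are, in order, NRF1, ETS and ERR. In Atp5l (chr9:44920693-44920992, minus strand) they are NRF1, ETS, ERR and ETS. In Atp5e (chr2:174464052-174464351, minus strand) they are ETS and ERR.
Atp5k: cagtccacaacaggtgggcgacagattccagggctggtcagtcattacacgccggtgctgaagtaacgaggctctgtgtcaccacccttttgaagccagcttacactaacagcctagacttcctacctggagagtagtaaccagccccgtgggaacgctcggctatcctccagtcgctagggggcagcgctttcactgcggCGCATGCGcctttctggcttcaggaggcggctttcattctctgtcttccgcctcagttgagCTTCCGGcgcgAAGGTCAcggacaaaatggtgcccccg
Atp5l: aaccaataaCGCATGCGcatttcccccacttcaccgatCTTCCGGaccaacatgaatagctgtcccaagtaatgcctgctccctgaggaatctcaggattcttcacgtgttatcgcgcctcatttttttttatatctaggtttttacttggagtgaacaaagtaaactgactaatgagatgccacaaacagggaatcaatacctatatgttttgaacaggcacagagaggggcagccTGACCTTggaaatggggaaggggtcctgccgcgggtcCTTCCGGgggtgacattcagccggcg
Atp5e: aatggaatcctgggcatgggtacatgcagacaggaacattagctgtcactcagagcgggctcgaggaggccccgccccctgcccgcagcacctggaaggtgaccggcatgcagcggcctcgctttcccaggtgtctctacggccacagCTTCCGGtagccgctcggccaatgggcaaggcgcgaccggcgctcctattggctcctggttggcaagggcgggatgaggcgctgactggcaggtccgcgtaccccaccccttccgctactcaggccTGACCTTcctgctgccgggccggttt

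The subunits were abundant in the aorta. The 80 tested members had mean levels from 4.42 to 1215 TPM with a median of 112 TPM, while the median over all 15668 tested genes was 8.68 TPM. Together the members made up 1.13%, 1.39% and 1.15% of the TPM in control and 1.03%, 1.04% and 1.19% in Prdm16SMKO aortas. The top level was that of Atp5b, the catalytic beta subunit of the ATP synthase, at 1306 ± 88.5 TPM in control and 1124 ± 176 TPM in Prdm16SMKO aortas (SD, n = 3 each). Cox6a1, a small subunit of complex IV, led its complex at 561 ± 97.9 and 490 ± 59.3 TPM. Uqcrb, which sits near the ubiquinone site of complex III, led there at 266 ± 38.5 and 226 ± 19.1 TPM. Ndufa6 led complex I at 225 ± 13.4 and 197 ± 7.23 TPM, and Sdha, the flavoprotein that oxidizes succinate, led complex II at 109 ± 16.4 and 104 ± 8.28 TPM.

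Levels differed widely among the subunits of 1 complex. The 7 catalytic core subunits of complex I made in the nucleus had a median of 63.2 TPM, from 34.4 TPM for Ndufs1 to 90.1 TPM for Ndufs7. Accessory subunits surround the core. The accessory set held 29 tested entries, with the pseudogene Ndufb4c among them and without Ndufa4 and Ndufa4l2. It had a median of 112 TPM and ranged from 19.1 TPM (Ndufb4) to 211 TPM (Ndufa6). Ndufb4 and Ndufb4c, an annotated processed pseudogene at 187 TPM, are uncertain, since near-identical copies can take each other's reads. The 7 other entries were not tested: the second Atp5o entry, Cox6c2, Cox7b2, Cox8c, Ndufa11b and Ndufs6b were listed at 0 in all 6 aortas, and Cox6a2, the isoform of heart and skeletal muscle, lay between 0 and 0.66 TPM.

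No member passed the test between Prdm16SMKO and control aortas. With limma on log2(TPM + 0.1) and Benjamini-Hochberg adjustment over all 15668 genes tested, 0 of 80 members had an adjusted p under 0.05, while 1.07% of all genes tested did (0.389% higher and 0.683% lower in Prdm16SMKO). At an unadjusted p under 0.05 there were 4 members (5%), and 12.7% of all genes. The count was 0 in 16 of 17 other settings and 1, Sdhc, after quantile normalization. The lowest adjusted p was 0.102, for Ndufv3.

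The differences leaned to 1 side all the same. In 76 of 80 members the fitted difference was below 0, with a median of -0.17 (log2) and a range of -0.46 to 0.28. The median over all genes tested was itself -0.12, with 67.9% of genes below 0, so the median member minus the median gene was -0.06 (log2). Rescaling the libraries by median ratios moved the median gene to 0.00121 and left this distance at -0.06, with 60 of 80 members below 0. Every Prdm16SMKO aorta lay below every control aorta in 17 members (21.3%), where 14.9% of all genes did the same, and above every control aorta in 1 (1.25%), where 4.08% of all genes did.

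**Figure D1:**
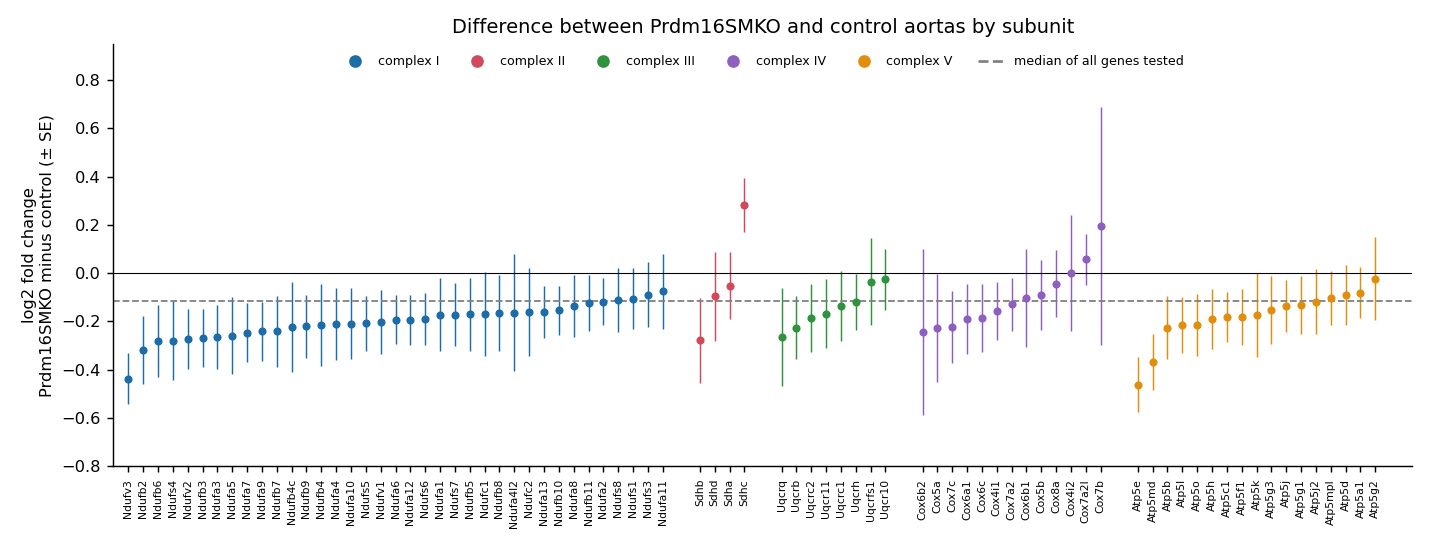
Difference between Prdm16SMKO and control aortas for the tested subunits except 1, grouped by complex and ordered by size. The y axis is the log2 fold change of TPM, points are limma estimates and bars their SE, and the dashed line at -0.12 is the median of all genes tested. Ndufv3, Atp5e and Atp5md lie lowest, Sdhc lies highest, and Cox7b has the widest bar.

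By complex, the median difference was -0.20 for complex I (38 tested), -0.07 for complex II (4), -0.15 for complex III (8), -0.13 for complex IV (13) and -0.17 for complex V (17), on the log2 scale. Those of complexes II, III and IV turned to 0.08, 0.01 and 0.02 after quantile normalization, and that of complex II also to 0.04 after median ratio rescaling and to 0.05 on TPM without mt- genes and the 2 most abundant other genes. Leaving out control aorta 2 alone turned complex II to 0.04 and complex IV to 0.04 and put complex III at -0.02. Of the 17 members whose Prdm16SMKO values all lay below the control values, 13 were in complex I and 4 in complex V. These are 34.2% of the tested members of complex I and 23.5% of those of complex V, beside 14.9% of all genes tested. Those of complex I were Ndufa2, Ndufa3, Ndufa6, Ndufa7, Ndufa9, Ndufa12, Ndufb3, Ndufb10, Ndufs4, Ndufs5, Ndufs6, Ndufv2 and Ndufv3, with differences from -0.44 (Ndufv3) to -0.12 (Ndufa2). Those of complex V were Atp5c1, Atp5e, Atp5f1 and Atp5md, from -0.46 (Atp5e) to -0.18 (Atp5f1). Counting Ndufa4 and Ndufa4l2 with complex IV, where Ndufa4 is now known to act, left complex I at -0.20 and put complex IV at -0.16.

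Most members had their highest value in the same aorta. Control aorta 2 held the highest of the 6 values for 65 of 80 members (81.3%), and for 2066 of 15668 genes (13.2%). It held the lowest value for 0 members. All 8 members of complex III peaked there. So did 32 of 38 of complex I, 11 of 13 of complex IV, 12 of 17 of complex V and 2 of 4 of complex II. Relative to each gene's mean over the 6 aortas, the median member stood at -0.03, 0.30 and 0.00 in the control aortas and at -0.15, -0.13 and 0.02 in the Prdm16SMKO aortas (log2). The median of all genes tested stood at 0.21, 0.03 and -0.05 in the control aortas and at -0.07, 0.07 and -0.17 in the Prdm16SMKO aortas. The members minus all genes thus stood at -0.24, 0.27 and 0.05 in control and at -0.07, -0.20 and 0.19 in Prdm16SMKO aortas, a distance within each library that a scaling factor hardly changes. Control aorta 2 and Prdm16SMKO aorta 3 were the furthest above 0.

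**Figure D2:**
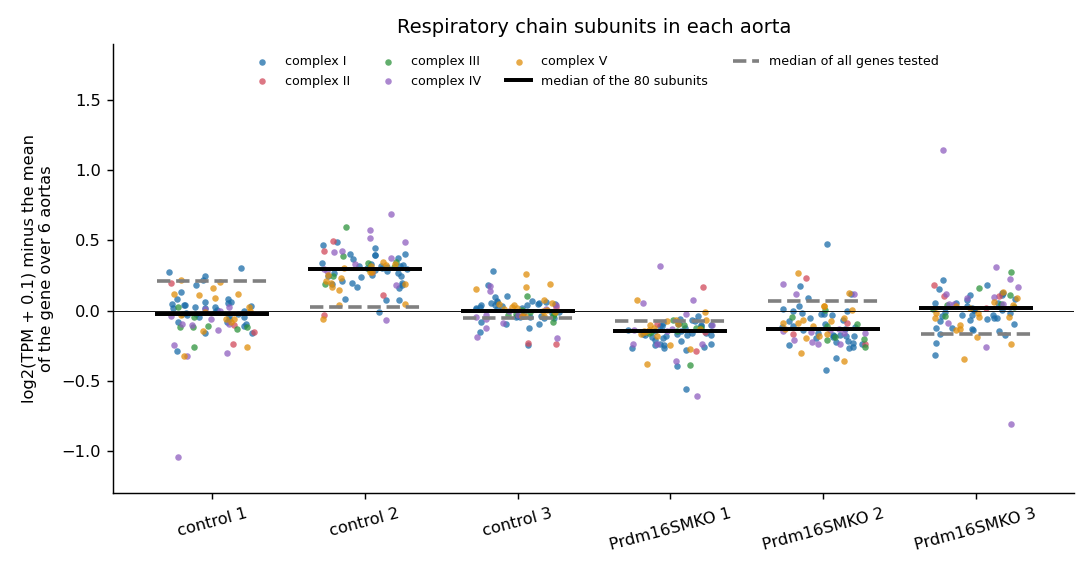
Level of each of the 80 tested subunits in each aorta, as log2(TPM + 0.1) minus the gene's mean over the 6 aortas (y axis), with 1 point a gene coloured by complex. Black bars are the median of the 80 subunits and dashed grey bars the median of all genes tested. The black bar is highest, at 0.30, in control aorta 2 and lowest, at -0.15, in Prdm16SMKO aorta 1.

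Whether the members lay below the median gene depended on the aortas used. Without control aorta 2, the median member was at -0.07 and the median gene at -0.13, and 22 of 80 members lay below the median gene, against 61 of 80 with all aortas. Without control aorta 1, in which the genes as a whole ran high, the median member was at -0.23, the median gene at -0.05, and 76 of 80 members lay below it. Without Prdm16SMKO aorta 2 the median member, at -0.16, was 0.0192 above the median gene. Without Prdm16SMKO aorta 3 it was at -0.22, with the median gene at -0.06.

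The summed markers of fat were highest in those same aortas. Ucp1, the proton channel of brown fat mitochondria, measured 15.3, 116.8 and 59.4 TPM in the control aortas and 30.5, 22.4 and 127.2 TPM in the Prdm16SMKO aortas. The 8 brown adipocyte markers, of which 7 were tested and none was at 0 throughout, summed to 105 to 637 TPM in control and 153 to 540 TPM in Prdm16SMKO aortas, at 105, 637 and 334 TPM and at 184, 153 and 540 TPM by aorta. The 5 general adipocyte markers summed to 367, 1335 and 623 TPM in control and to 481, 401 and 878 TPM in Prdm16SMKO aortas. Dio2, the deiodinase of brown fat and 1 of these 8, measured 16.1, 22.8 and 21.9 TPM in control and 11.1, 9.88 and 13.3 TPM in Prdm16SMKO aortas. Within each group it was highest in the same aorta as Ucp1. Unlike those of Ucp1, its groups did not overlap (-0.81, adjusted p 0.0845 by limma). Both sums put the 6 aortas in the same order as the distance of the members from all genes did, from control aorta 1, the lowest, over Prdm16SMKO aortas 2 and 1, control aorta 3 and Prdm16SMKO aorta 3 to control aorta 2, the highest. Their part in the members' values was not tested. Without both of the aortas with the highest Ucp1, the medians were -0.12 for the members and -0.07 for all genes. With 2 aortas a group that fit called 5 of all 15668 genes, so that its 0 calls among the members say little.

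In complex I, Ndufv3, a small accessory subunit of the NADH-binding module, had the lowest p of all members. It lies at chr17:31520115-31531331 on the plus strand and measured 188.1, 180.5 and 163.0 TPM in the control aortas and 126.1, 136.2 and 129.7 TPM in the Prdm16SMKO aortas. The groups did not overlap, and the Prdm16SMKO mean was 73.8% of the control mean. The difference was -0.44 ± 0.10 (log2, SE), with an adjusted p of 0.102 by limma, so it did not pass. Ndufb2 and Ndufb3, both accessory subunits of the membrane arm, followed with -0.32 ± 0.14 and -0.27 ± 0.12 and adjusted p of 0.396 and 0.403 by limma. Ndufb2 measured 86.2, 81.2 and 76.4 TPM in control and 55.1, 77.5 and 64.4 TPM in Prdm16SMKO aortas, and Ndufb3 measured 119.9, 150.7 and 125.4 TPM and 103.1, 110.2 and 114.3 TPM. The groups overlapped for Ndufb2 and were apart for Ndufb3.

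The catalytic core of complex I lay closer together. The 7 core subunits had a median difference of -0.17, and the 29 accessory entries, Ndufb4c among them, of -0.21. Ndufv1, which binds NADH and the flavin that accepts its electrons, measured 69.4, 86.1 and 72.9 TPM in control and 58.2, 68.0 and 72.3 TPM in Prdm16SMKO aortas. Ndufs1, the large iron-sulfur subunit, measured 34.8, 39.0 and 33.3 TPM and 30.3, 33.6 and 35.6 TPM, and the groups overlapped in both. Ndufv2, the iron-sulfur partner of Ndufv1, did not overlap, at 66.6, 77.9 and 63.3 TPM in control and 55.5, 53.9 and 62.1 TPM in Prdm16SMKO aortas. Its difference was -0.27 ± 0.12, with an adjusted p of 0.408 by limma. Ndufs3, Ndufs7 and Ndufs8, which lie on the way to ubiquinone, differed by -0.09, -0.17 and -0.11 (log2), each with overlapping groups.

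In complex II the differences had both signs. Sdhc, 1 of the 2 membrane anchors that hold the heme, lies at chr1:171127165-171150603 on the minus strand. It measured 89.99, 98.0 and 85.0 TPM in control and 112.5, 117.8 and 101.6 TPM in Prdm16SMKO aortas. It was the 1 tested member with every Prdm16SMKO value above every control value, at 121.6% of the control mean and 0.28 ± 0.11 (log2, SE), with an adjusted p of 0.345 by limma. Its adjusted p fell to 0.0365 after quantile normalization. Sdhb, the iron-sulfur subunit, measured 79.98, 121.1 and 87.6 TPM and 70.4, 72.9 and 92.5 TPM, a difference of -0.28 ± 0.18 with overlapping groups. Sdha measured 121.4, 114.3 and 90.2 TPM and 99.1, 99.7 and 113.8 TPM, and Sdhd, the other anchor, 42.0, 66.5 and 48.2 TPM and 44.5, 44.0 and 56.2 TPM, also with overlap.

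Within an aorta, the shares of the 4 genes do not depend on how libraries are scaled. Sdhc made up 27.0%, 24.5% and 27.3% of the summed complex II TPM in control and 34.5%, 35.2% and 27.9% in Prdm16SMKO aortas. The groups came close, since Prdm16SMKO aorta 3 lay just above control aorta 3. The sum of the 4 genes was 348 ± 46.3 TPM in control and 342 ± 19.7 TPM in Prdm16SMKO aortas (SD, n = 3 each). The two-sided exact permutation test of the Sdhc share gave p = 0.1, the smallest that 3 against 3 aortas allow, and Sdhc was picked out after its values were seen.

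In complex III, 0 of the 8 members, all named Uqcr, had groups that were apart. Of all genes tested, 14.9% were lower and 4.08% higher in every Prdm16SMKO aorta than in every control aorta. Cyc1, which codes for cytochrome c1, is not a member by name. It measured 68.7, 98.9 and 79.2 TPM in control and 66.7, 58.7 and 88.95 TPM in Prdm16SMKO aortas, also with overlap. Uqcrfs1, the Rieske iron-sulfur protein that passes electrons to cytochrome c1, measured 39.7, 59.0 and 47.8 TPM in control and 43.7, 41.2 and 57.7 TPM in Prdm16SMKO aortas, a difference of -0.03 ± 0.18. Uqcrb, Uqcrc2 and Uqcrq had the lowest p of the complex, at differences of -0.23 ± 0.13, -0.19 ± 0.14 and -0.26 ± 0.20 and adjusted p of 0.506, 0.628 and 0.630 by limma. Uqcrq stood highest in control aorta 2, at 151.4 TPM beside 91.9 and 94.3 TPM in the other control aortas and 76.2, 96.7 and 102.7 TPM in the Prdm16SMKO aortas.

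In complex IV, 0 of 13 tested subunits had groups that were apart, beside 14.9% (lower) and 4.08% (higher in Prdm16SMKO) of all genes tested. Cox4i1, the ubiquitous form of the regulatory subunit 4, measured 374.9, 465.9 and 384.6 TPM in control and 352.4, 347.1 and 396.9 TPM in Prdm16SMKO aortas. Its difference of -0.16 ± 0.12 had an adjusted p of 0.630 by limma. Cox6c and Cox7c, small structural subunits, differed by -0.19 ± 0.14 and -0.22 ± 0.15, with adjusted p of 0.620 and 0.568 by limma. Cox5a, which faces the matrix, measured 58.2, 104.1 and 80.2 TPM and 56.8, 62.8 and 85.1 TPM. Cox7a2l, which helps to join complexes III and IV into supercomplexes, varied least in this complex, from 122.7 to 141.3 TPM over the 6 aortas.

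Cox7b, another small subunit of complex IV, varied most among the tested members. It measured 76.4, 235.4 and 178.4 TPM in the control aortas and 103.3, 133.9 and 348.8 TPM in the Prdm16SMKO aortas, a 4.56-fold range with a coefficient of variation of 55.9%, where the median member had 13.7%. Its difference of 0.20 ± 0.49 (log2, SE) was smaller than its error. The order of the 6 aortas by Cox7b was the same as their order by the share of TPM from the mitochondrial genome, which was 14.7%, 22.2% and 20.2% in control and 16.1%, 19.95% and 26.5% in Prdm16SMKO aortas. Ucp1 and Cox7a1 were also highest in control aorta 2 and Prdm16SMKO aorta 3. This is a description of 6 libraries, and the part of fat or of mitochondrial RNA in the Cox7b values was not tested.

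**Figure D3:**
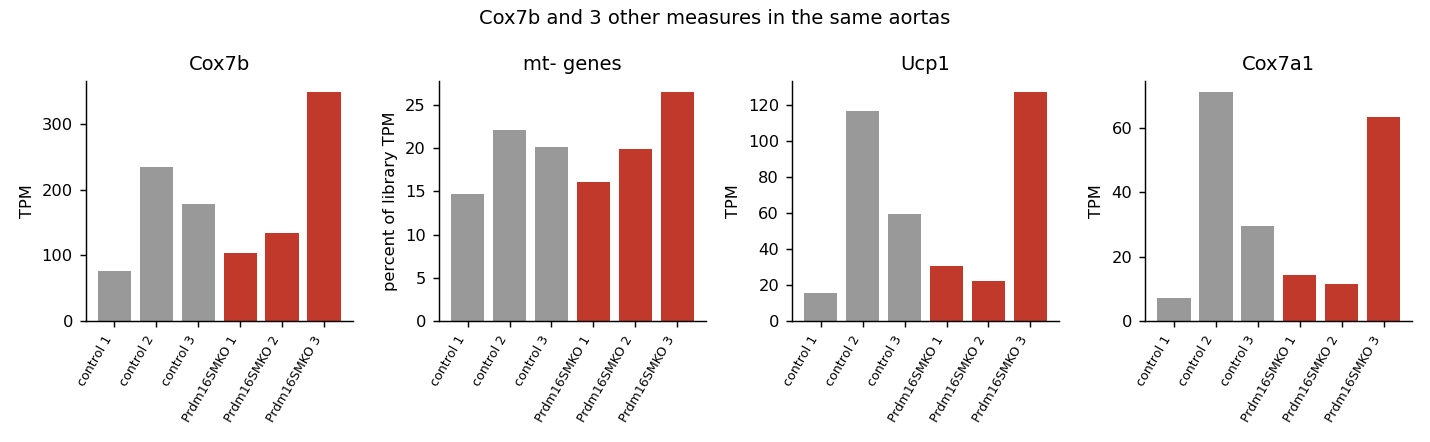
Cox7b in each of the 3 control (grey) and 3 Prdm16SMKO (red) aortas, beside the percentage of each library's TPM from mt- genes (the mitochondrial genome), Ucp1 and Cox7a1, with 1 bar an aorta and all y axes starting at 0. Cox7b and the mt- share rank the aortas alike, from control aorta 1 (76.4 TPM and 14.7%) to Prdm16SMKO aorta 3 (348.8 TPM and 26.5%).

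Tissue isoforms of complex I and IV subunits were compared as the share of 1 isoform in the TPM of its pair. The isoforms of heart, muscle and brown fat were minor. Cox7a1 took 6.34%, 37.3% and 21.9% of Cox7a1 and Cox7a2 in control and 12.8%, 10.7% and 37.0% in Prdm16SMKO aortas. Cox8b took 3.17%, 20.1% and 16.9% of Cox8a and Cox8b, and 8.03%, 9.37% and 17.7%. Both shares were highest in control aorta 2 and Prdm16SMKO aorta 3, as the summed brown fat markers were, a sum that holds both genes, and ranged more widely within each group than between the group means.

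The other isoforms varied less. Cox4i2, the form of lung and low-oxygen tissue, took 1.48% ± 0.28 of its pair with Cox4i1 in control and 1.66% ± 0.37 in Prdm16SMKO aortas (SD, n = 3 each). Cox6b2, known from testis, took 3.80% ± 0.55 and 3.81% ± 1.89 of its pair with Cox6b1, and Cox6a2 stayed below 0.12% of its pair with Cox6a1 in every aorta. Ndufa4l2, a paralog of Ndufa4 induced in low oxygen, took 6.89% ± 1.49 and 7.26% ± 2.74. Over the 6 pairs compared, the smallest two-sided exact permutation p was 0.7 and the Benjamini-Hochberg values were all 1, where 3 against 3 mice cannot give a p below 0.1.

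In complex V, Atp5e, the small epsilon subunit of the rotating stalk whose promoter is shown above, had the most negative difference of all members. It lies at chr2:174461072-174464105 on the minus strand and measured 164.3, 186.5 and 167.7 TPM in control and 113.2, 129.8 and 133.7 TPM in Prdm16SMKO aortas. The groups were apart, at 72.7% of the control mean and -0.46 ± 0.11 (log2, SE), with an adjusted p of 0.11 by limma. Atp5md, a small membrane subunit that helps dimers of the enzyme to form, lies at chr19:47083464-47090647 on the minus strand. It measured 211.7, 237.9 and 220.1 TPM in control and 176.8, 152.9 and 190.1 TPM in Prdm16SMKO aortas, and its groups were apart too, at -0.37 ± 0.12 with an adjusted p of 0.228 by limma. Atp5l, another membrane subunit at the dimer interface, measured 155.2, 168.6 and 169.7 TPM and 126.0, 141.6 and 159.0 TPM, and the groups overlapped.

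The large subunits of the catalytic head did not pass the test either. Atp5a1, the alpha subunit, measured 228.7, 259.6 and 224.2 TPM in control and 219.8, 216.8 and 236.3 TPM in Prdm16SMKO aortas, a difference of -0.08 ± 0.11. Atp5b measured 1308, 1394 and 1217 TPM and 1075, 978 and 1319 TPM, a difference of -0.23 ± 0.13 with overlap. Atp5c1, the gamma subunit that turns inside the head, measured 150.1, 161.7 and 139.6 TPM and 133.7, 134.5 and 128.7 TPM, which did not overlap, with a difference of -0.18 ± 0.10 and an adjusted p of 0.50 by limma.

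Subunit c, which forms the rotating ring, is made from 3 genes, Atp5g1, Atp5g2 and Atp5g3, whose mature proteins are alike. They summed to 292 ± 10.3 TPM in control and 272 ± 40.0 TPM in Prdm16SMKO aortas (SD, n = 3 each). Atp5g3 gave 52.3% ± 4.13 of that sum in control and 50.8% ± 1.93 in Prdm16SMKO aortas, and Atp5g1 gave 15.6% ± 1.62 and 15.4% ± 1.71. The groups overlapped in each.

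**Figure D4:**
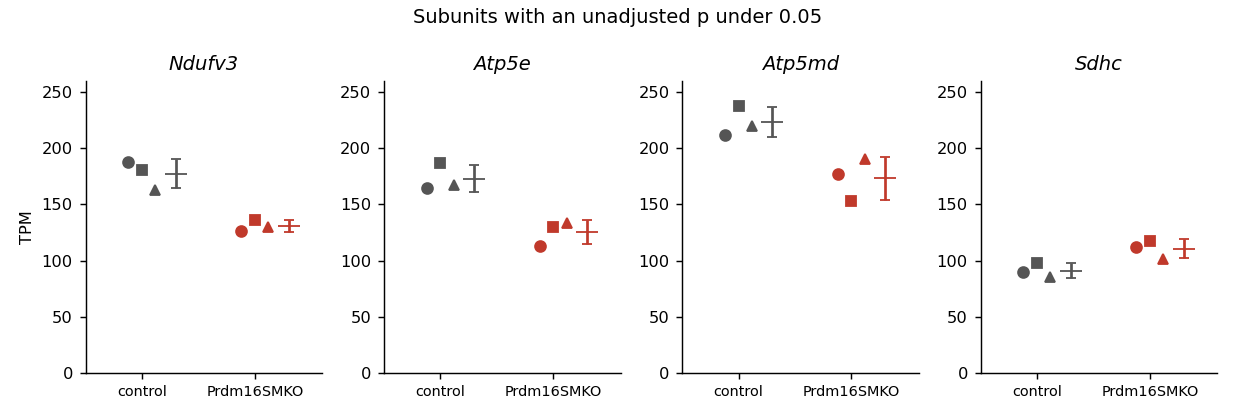
The 4 subunits with an unadjusted limma p under 0.05, in TPM on a y axis from 0, with 1 point for each of 3 control (grey) and 3 Prdm16SMKO (red) aortas (circle, square and triangle for aortas 1, 2 and 3) and the mean ± SD beside them. Ndufv3, Atp5e and Atp5md lie lower, and Sdhc higher, in every Prdm16SMKO aorta than in any control aorta, and 0 of the 4 passed after adjustment.

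Other genes of the pathway gave 0 calls as well. Of 48 assembly factors, which build the complexes and are not part of them, 0 were called, 8 had an unadjusted p under 0.05 and the median difference was -0.14. Over all genes tested, 12.7% had an unadjusted p under 0.05 and 67.9% lay below 0, with a median of -0.12. Lyrm7, which puts the Rieske protein into complex III, measured 4.79, 1.9 and 3.34 TPM in control and 0.98, 2.07 and 0.71 TPM in Prdm16SMKO aortas, with an adjusted p of 0.236 by limma. The 14 electron carrier genes were those of cytochrome c, ubiquinone synthesis and electron transfer flavoprotein, with Cyc1 added. Cyc1 is a nuclear subunit of complex III that the name rule misses. Of the 14, 13 lay below 0, and the median of -0.10 was no lower than that of all genes. The 13 citric acid cycle genes had a median of -0.13, the 79 tested mitochondrial ribosomal proteins of -0.17 and the 16 tested regulators of respiratory genes of -0.07, each with 0 called. Of these regulators, Nrf1 measured 9.99 to 13.4 TPM in control and 8.67 to 12.3 TPM in Prdm16SMKO aortas, and Ppargc1a, the coactivator of mitochondrial biogenesis, 1.62 to 2.36 and 1.91 to 3.00 TPM. The paper lists Suclg2, a citric acid cycle gene, among its genes lower in Prdm16SMKO aortas. Here its difference was -0.52 ± 0.16 (log2, SE), with an adjusted p of 0.233 by limma.

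The citric acid cycle genes varied across the aortas much as the respiratory subunits did, and the mitochondrial ribosomal proteins less so. Relative to each gene's mean, the median cycle gene stood at -0.15, 0.30 and -0.01 in control and -0.20, -0.16 and 0.16 in Prdm16SMKO aortas. The median ribosomal protein stood at 0.15, 0.13 and -0.01 and at -0.12, 0.01 and -0.16.

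The subunits made from mitochondrial DNA leaned the other way. All 13 lay above 0, with a median of 0.09, 0 called and 0 with an unadjusted p under 0.05. They summed to 142529, 213226 and 194976 TPM in control and 150643, 190342 and 256130 TPM in Prdm16SMKO aortas, and the groups overlapped. The nuclear members made up 7.36%, 6.11% and 5.55% of the sum of both in control and 6.39%, 5.19% and 4.42% in Prdm16SMKO aortas, again with overlap.

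PRDM16 peaks lay near the start of 21 members. Of 84 members with a curated RefSeq start site, 21 (25.0%) had the centre of a PRDM16 Flag peak within 2 kb of it, beside 26.3% of all genes with such a site. All 21 were among the 80 tested members (26.3%), while 43.4% of all tested genes had a peak. At a mean of 50 TPM or more the shares were 26.5% of 68 members and 51.2% of all genes, which is given as a description, since genes are not replicates and no test was made. Expression was measured in aorta and binding in fibroblasts, so these levels are not those of the cells that were immunoprecipitated. The assembly factors had peaks at 25.0% of 48 genes, the mitochondrial ribosomal proteins at 19.2% of 78 and the citric acid cycle genes at 46.2% of 13.

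By complex, 9 of 39 genes of complex I, 2 of 4 of complex II, 4 of 8 of complex III, 3 of 16 of complex IV and 3 of 17 of complex V had a peak. In complex I they were Ndufa1, Ndufa4, Ndufa4l2, Ndufa6, Ndufa11, Ndufb8, Ndufb9, Ndufc2 and Ndufs4. In complexes II and III they were Sdhb, Sdhd, Uqcrc2, Uqcrfs1, Uqcrh and Uqcrq, in complex IV Cox4i1, Cox5a and Cox6c, and in complex V Atp5a1, Atp5g2 and Atp5j. The nearest peaks to members just outside the limit were at -2.835 kb from the start of Ndufs6 and -3.046 kb from that of Atp5d (upstream), and at 3.51 kb from that of Ndufb10 (downstream). Cox6a1 and Atp5b, the most abundant members of complexes IV and V, had their nearest peak 7.98 and 9.68 kb after the start. The vector library had 67 peaks in all and 0 at these promoters, beside 11271 in the PRDM16 library. The 21 members with a peak had a median difference between Prdm16SMKO and control aortas of -0.17, and the 59 tested members without one of -0.18, with 0 called in either. Ndufv3, Atp5e, Atp5md and Sdhc had no peak within 2 kb.

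The members' peaks were modest. The authors' fold enrichment at the summit, a ratio over local background, ran from 3.41 to 8.09 with a median of 4.92, beside 5.27 for all 6873 promoter peaks. The peak at Cox5a was the highest at 8.09-fold, at the percentile 91.4 of all peaks, and lay in an intron (summit 434 bp after the start site). Those at Ndufc2, an accessory subunit of the membrane arm of complex I, at Uqcrq and at Atp5j, a stalk subunit, followed at 6.51-fold, 6.33-fold and 5.98-fold. Sdhb, at 3.87-fold, had the higher of the peaks in complex II. Sdhd had the lowest of all at 3.41-fold, with a q of 0.0133.

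The peaks lay beside the start sites. Of the 21 centres, 13 (61.9%) were after the start site, 12 of them (57.1%) between 101 and 500 bp after it, and 8 before it. All 6873 promoter peaks were placed by the nearest start site of any gene, and 79.5% were centred after it and 52.6% between 101 and 500 bp after it. The members' peaks were placed by the start site of the member alone, so these shares are not measured alike. None of the 21 peaks, 224 to 603 bases long, covered a start site of its gene. Of all promoter peaks, 30.9% covered a start site of any gene within 2 kb. Whether the 21 peaks covered start sites of other genes was not checked, so the counts cannot be set side by side. By summit, 10 were in an intron, 2 in a coding exon, 1 in a noncoding part of an exon and 8 outside the gene. At 10 of the 21 members, the same peak was also within 2 kb of the start site of another gene, such as Gabpa at Atp5j, Timm8b at Sdhd and Phf14 at Ndufa4, so that the peak cannot be given to 1 gene alone.

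**Figure D5:**
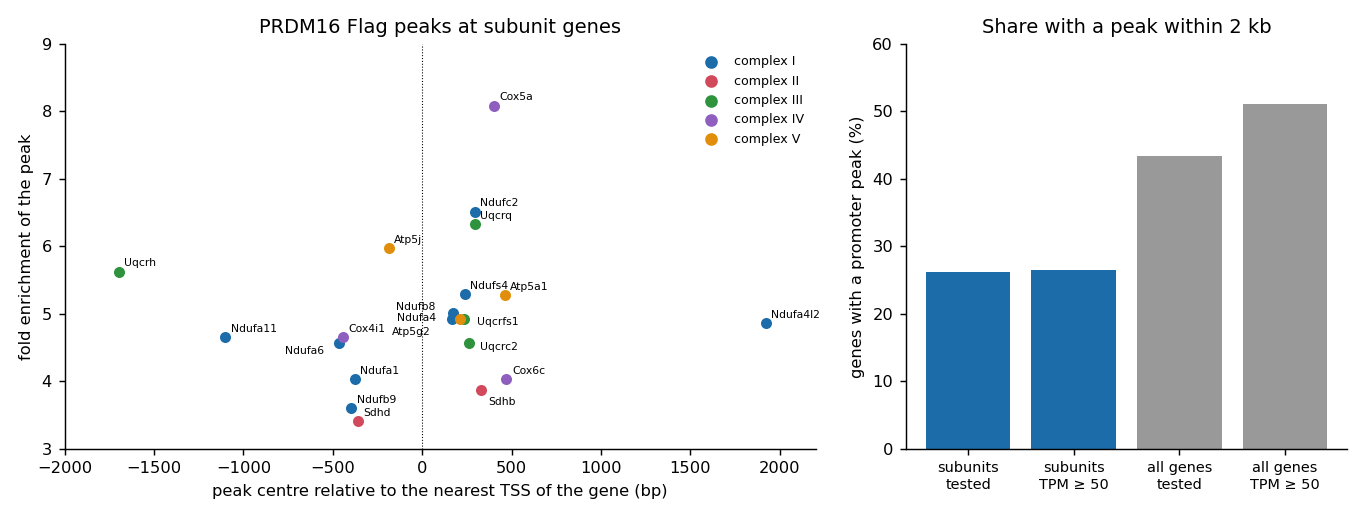
Left, the 21 PRDM16 Flag peaks at subunit genes, by the distance of the peak centre from the nearest start site of the gene (TSS, in bp, negative upstream, x axis) and the fold enrichment (y axis), coloured by complex. Right, the percentage of genes with a peak within 2 kb, for the 80 tested subunits (26.3%) and those of 50 TPM or more (26.5%) in blue, and for all tested genes (43.4%) and those of 50 TPM or more (51.2%) in grey.

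The same 5 words were searched in windows of 300 bases around the peak summits. The ERR word stood in 5 of the 21 member windows (23.8%), beside 4.0% of all 11258 peaks on assembled chromosomes. These include peaks away from promoters, while the member windows are all near start sites, so the shares compare unlike kinds of peak. The YY1 word stood in 3 (14.3%, beside 2.21%). The ETS word and the GATA core stood in 1 each (4.76%, beside 5.68% and 6.48%), and the NRF1 word in 0, beside 0.355%. With 21 windows, 1 window is 4.76%, and the words were chosen as known words of respiratory gene promoters, with the GATA core added.

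The windows below, read from GRCm38.p6 along the strand of the gene, are that of Cox5a, the highest peak, and the 5 that held the ERR word, which is in capitals on either strand. Atp5g2 also held a YY1 word, the second run of capitals. Cox5a lies at chr9:57521516-57521815 (plus), Uqcrq at chr11:53430336-53430635 (minus), Atp5g2 at chr15:102670711-102671010 (minus), Uqcrc2 at chr7:120635308-120635607 (plus), Cox6c at chr15:35937629-35937928 (minus) and Sdhb at chr4:140961582-140961881 (plus). All 6 windows begin after the start site.
Cox5a: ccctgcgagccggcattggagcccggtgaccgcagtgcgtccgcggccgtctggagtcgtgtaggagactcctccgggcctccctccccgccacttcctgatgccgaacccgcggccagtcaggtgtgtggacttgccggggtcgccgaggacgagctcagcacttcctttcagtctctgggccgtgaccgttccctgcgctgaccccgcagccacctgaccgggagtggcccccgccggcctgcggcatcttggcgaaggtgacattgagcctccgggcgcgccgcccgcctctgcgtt
Uqcrq: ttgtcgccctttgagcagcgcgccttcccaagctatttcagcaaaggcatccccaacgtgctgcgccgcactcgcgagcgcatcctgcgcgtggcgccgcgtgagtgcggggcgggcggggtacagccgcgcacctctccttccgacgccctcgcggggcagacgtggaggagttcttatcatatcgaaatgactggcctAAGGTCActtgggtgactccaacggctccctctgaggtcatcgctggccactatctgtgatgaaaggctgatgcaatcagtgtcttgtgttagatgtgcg
Atp5g2: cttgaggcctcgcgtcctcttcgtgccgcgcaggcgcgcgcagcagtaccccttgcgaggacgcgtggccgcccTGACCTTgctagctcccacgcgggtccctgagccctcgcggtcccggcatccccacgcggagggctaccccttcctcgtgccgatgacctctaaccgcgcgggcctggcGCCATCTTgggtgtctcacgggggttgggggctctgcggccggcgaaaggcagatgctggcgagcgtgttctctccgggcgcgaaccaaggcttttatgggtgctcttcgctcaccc
Uqcrc2: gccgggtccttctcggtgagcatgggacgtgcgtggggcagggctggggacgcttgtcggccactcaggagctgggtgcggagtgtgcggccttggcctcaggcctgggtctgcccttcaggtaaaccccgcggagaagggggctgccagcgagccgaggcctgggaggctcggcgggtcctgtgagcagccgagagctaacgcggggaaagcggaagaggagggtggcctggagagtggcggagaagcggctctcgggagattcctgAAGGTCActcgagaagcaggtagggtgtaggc
Cox6c: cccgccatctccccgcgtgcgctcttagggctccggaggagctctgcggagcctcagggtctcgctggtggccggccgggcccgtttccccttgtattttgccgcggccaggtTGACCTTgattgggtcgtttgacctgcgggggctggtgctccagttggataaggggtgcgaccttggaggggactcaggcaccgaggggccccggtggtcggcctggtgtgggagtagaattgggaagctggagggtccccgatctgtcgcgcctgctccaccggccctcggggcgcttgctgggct
Sdhb: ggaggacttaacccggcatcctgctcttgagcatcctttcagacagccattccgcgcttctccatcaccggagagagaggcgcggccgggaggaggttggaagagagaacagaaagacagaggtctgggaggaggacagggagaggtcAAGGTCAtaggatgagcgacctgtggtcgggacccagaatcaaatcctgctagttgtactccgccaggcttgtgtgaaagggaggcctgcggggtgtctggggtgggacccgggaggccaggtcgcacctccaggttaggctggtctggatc

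None of these 6 genes passed the test in the aorta. Their differences between Prdm16SMKO and control aortas were -0.23 for Cox5a, -0.26 for Uqcrq, -0.02 for Atp5g2, -0.19 for Uqcrc2, -0.19 for Cox6c and -0.28 for Sdhb (log2), and the groups overlapped in all 6.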

How the data were processed

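For RNA-Seq the authors deposited TPM, 1 column per aorta, made with STAR 2.7.8a and RSEM 1.3.3 per the labels' list of tools (GRCm38, poly(A) selection). These TPM carry no counts. The depth of each library is thus unknown here, and neither count models nor counting intervals were used. For ChIP-Seq the authors mapped reads to GRCm38 with Bowtie2 2.3.4.1 and called peaks with MACS2 at a stated q of 0.01. The deposited lists give fold enrichment (a ratio) and −log10 p and −log10 q values, and 437 of the 11271 peaks have a q above 0.01, up to 0.0483. Positions, fold enrichment and q were used as deposited. The IgG libraries were not analysed here.

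Groups were compared with limma 3.58.1 (R 4.3.3; lmFit, then eBayes with a trend) on log2(TPM + 0.1), for every gene whose mean TPM reached 0.5, with no covariates. The procedure was tested on simulated data whose shifts were larger than any difference of the members. That test cannot show whether differences of the members' size would be found. Fold changes on this scale understate those of low genes. Start sites were those of curated RefSeq transcripts (GRCm38.p6), and gene positions those of GENCODE M21. Isoform shares were compared with exact permutation tests. Python 3.11.15, pandas 2.3.3, numpy 2.4.6 and scipy 1.17.1 were used. Named members were those called, the 3 with the lowest p, the most abundant and the one with the highest peak in each complex, the isoform pairs, the catalytic core and the members not tested. Others, among them Cox7b, Cox7a2l, the subunit c genes and Lyrm7, were named after their values were seen. 1 member is counted but not reported by name. The members and lists were chosen with earlier results of these data known.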

Additional observations from a re-analysis of the deposited data

How the results depend on the processing

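Other pseudocounts, filters and scalings, no trend, a replicate block and leaving out each aorta were tried, and after seeing the data also TPM without mt- genes and the 2 most abundant other genes, the fit without the aortas of highest Ucp1, and GENCODE start sites. Of the members called, 0 became 1 with quantile normalization (Sdhc, 0.45, adjusted p 0.0365 by limma). With quantile normalization, the median member moved from -0.17 to -0.025, that of complex I to -0.047 and that of complex V to -0.017. With median ratio rescaling these medians stood at -0.054, -0.079 and -0.055. Without mt- genes and the 2 most abundant other genes they stood at -0.051, -0.076 and -0.052. The median of all genes tested was -0.0053, 0.0012 and 0.0063 under these settings, in the same order. Leaving out 1 aorta at a time, the median member ranged from -0.23 to -0.07. Sdhd turned from -0.10 to 0.022 with median ratio rescaling, 0.052 with quantile normalization and 0.024 without mt- genes and the 2 most abundant other genes, and ranged from -0.24 to 0.092 without 1 aorta at a time (0.092 without control aorta 2). The causes were not tested, apart from the scalings themselves.

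Without 1 aorta at a time, the difference in isoform share (percentage points, Prdm16SMKO minus control) ranged from -0.0055 to 0.057 for Cox6a2, from -0.71 to 1.08 for Cox6b2, from -10.1 to 6.04 for Cox7a1, from -6.82 to 1.65 for Cox8b and from -1.20 to 1.29 for Ndufa4l2, so that the sign of each depended on the aortas used. That for Cox4i2 ranged from 0.03 to 0.38.

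Members with a promoter peak fell from 21 to 6 with a window from 1 kb upstream to 100 bp downstream and to 9 at a q of at most 1e-05, where 14.2% and 29.0% of tested genes had one. The replicate numbers are not stated to pair the aortas. The deviations of same-numbered aortas correlated at -0.0246, -0.07 and -0.00896, which shows no strong shared shift but cannot show how the mice were matched. With the replicate block, 0 members were called and the median member was at -0.17. TPM without depth limit what can be said of low members such as Cox6b2 and Cox6a2.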
